A study of Rattus norvegicus with 7 samples.

Results

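DNA methylation in mammals is written by DNA methyltransferases, removed through oxidation by Tet enzymes and read by proteins with a methyl-CpG-binding domain. Dnmt1 copies methylation onto the new strand after DNA replication, whereas Dnmt3a and Dnmt3b place it on unmethylated DNA. Mbd1 and Mbd2 bind methylated CpG and recruit repressive complexes, and Mbd3 is a subunit of the nucleosome remodelling and deacetylase complex NuRD that itself binds methylated DNA poorly. In adult brain most neurons no longer divide, and both the writers and the readers are expressed there. The expression of these genes was followed in rat hippocampus, a region for memory, and hypothalamus, a region for endocrine and metabolic control. The 9 genes were the writers Dnmt1, Dnmt3a and Dnmt3b, the erasers Tet1, Tet2 and Tet3, and the readers Mbd1, Mbd2 and Mbd3, chosen by name from 2 deposited expression tables. Of these, 6 had a row in both tables, among 15805 gene symbols that the tables share. Tet1, Tet2 and Tet3 were not analysed here.

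All 7 libraries came from male Sprague Dawley rats that were 2 months old at the start and then received the omega-3 fatty acid docosahexaenoic acid (DHA) in the diet for 6 weeks. The groups were DHA hippocampus (4 libraries) and DHA hypothalamus (3 libraries). Libraries of animals without DHA were not analysed here, so no value below measures an effect of the diet, which every library shares. The labels do not say whether each library came from a separate animal, and the spread given may therefore be partly technical.

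Poly-A RNA was sequenced, and values are in FPKM, which counts fragments relative to transcript length and library size, so levels of different genes can be compared per length. The depth of the libraries is unknown because no counts were used. Summed FPKM was 370020 to 391349 per hippocampal library and 443335 to 471484 per hypothalamic library. The labelled tissues matched their markers: 5 hippocampal markers summed to 943.9 to 1332 FPKM in hippocampus and 22.5 to 28.5 FPKM in hypothalamus, and 6 hypothalamic markers to 7.58 to 12.1 and 5948 to 8516 FPKM, with Oxt listed at 0 in hippocampus. Replicate 1 of each tissue stood apart in how its low values were spaced. Between replicates other than replicate 1, 19.5% to 25.7% of loci under 0.1 FPKM shared 1 common ratio, against at most 3.66% for pairs that held replicate 1. Members' tissue differences whose overlap turned on replicate 1 are given with and without it, and the other pathway genes as counts with and without it. Choroid plexus markers (5 of 6 found in hippocampus) summed to 4726, 35.1, 5926 and 2059 FPKM in hippocampal replicates 1 to 4, and to 23.7 to 58.4 FPKM in hypothalamus. Among the members measured, Dnmt3b ranked the 4 hippocampal libraries in that same order, and the part of choroid plexus in its level was not tested.

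Proximal promoters were at hand for 5 of the 6 measured members, and 2 of them are shown with each CG, the dinucleotide that these proteins write and read, in capitals. They belong to the writer and the reader whose libraries differed most within the hippocampus, with Dnmt3a taken by its locus of highest mean. With its loci added, the hippocampal SD of log2(FPKM + 1) was 0.118 for Dnmt3a, below the 0.135 of Dnmt1. Each window runs from 250 bases before to 50 bases after the start in RefSeq's GRCr8 assembly, on the gene's plus strand (chr6:32598352-32598651 for Dnmt3a and chr7:9963390-9963689 for Mbd3).
Dnmt3a: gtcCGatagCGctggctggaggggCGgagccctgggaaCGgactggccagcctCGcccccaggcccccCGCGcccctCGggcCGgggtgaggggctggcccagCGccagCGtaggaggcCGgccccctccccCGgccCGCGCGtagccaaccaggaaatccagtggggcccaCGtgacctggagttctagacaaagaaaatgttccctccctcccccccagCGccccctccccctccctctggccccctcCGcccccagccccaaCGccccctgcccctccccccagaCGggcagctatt
Mbd3: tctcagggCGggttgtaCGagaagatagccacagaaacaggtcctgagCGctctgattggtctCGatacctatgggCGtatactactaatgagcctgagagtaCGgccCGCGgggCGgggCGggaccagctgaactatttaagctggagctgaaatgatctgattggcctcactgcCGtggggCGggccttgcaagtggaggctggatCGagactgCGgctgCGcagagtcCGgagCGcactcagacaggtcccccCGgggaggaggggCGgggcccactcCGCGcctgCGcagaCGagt
The Dnmt3a window held 21 CG, and 22.6% of 33469 rat promoter windows of that length held as many or more. The Mbd3 window held 23, a number that 19.5% of windows reached. Dnmt1 had 17 (29.0% of windows held as many or more), Mbd1 25 (16.6%) and Mbd2 39 (3.76%). CG reads the same on both strands, and over all windows the median was 7, with quartiles of 3 and 19. Promoter methylation was not measured here, so these letters are a description of the sites and not of their state.

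Among the writers, Dnmt1 had the highest FPKM in each of the 7 libraries. Its level was 10.4, 9.38, 8.09 and 9.19 FPKM in hippocampal replicates 1 to 4 (9.27 ± 0.955, SD, n = 4) and 7.13, 6.51 and 7.87 FPKM in hypothalamic replicates 1 to 3 (7.17 ± 0.680, n = 3). Every hippocampal library lay above every hypothalamic one.

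Dnmt3a, the de novo methyltransferase most studied in neurons, was carried by 2 loci in the hippocampal table and by 1 in the hypothalamic table. The locus with the higher hippocampal mean, XLOC_023455, was at 4.39, 2.11, 2.18 and 2.51 FPKM (2.79 ± 1.08, n = 4; 2.26 without replicate 1). The second locus, XLOC_023957, was listed at 0 in replicate 1 and at 2.93, 2.79 and 3.07 FPKM in replicates 2 to 4. Replicate 1 was thus the highest library at the first locus and the lowest at the second. Added together, the loci gave 4.39, 5.04, 4.96 and 5.58 FPKM (4.99 ± 0.487, n = 4), and the SD between libraries on the log2(FPKM + 1) scale was 0.118, against 0.370 for the first locus alone. Among the 50 rows on either side of the first locus, 74.6% of the 71 that could be placed were genes on the plus strand, that of Dnmt3a in RefSeq. Around the second locus the share was 14.6% of 82 rows, and around the hypothalamic locus it was 69.4% of 72. Whether the second locus holds reads of Dnmt3a or of its opposite strand was not tested, and strand assignment is not given in the sources used here. A long noncoding RNA, LOC120103494, overlaps Dnmt3a in RefSeq and names no locus in the tables. The hypothalamic locus, XLOC_022227, was at 5.01, 5.81 and 5.67 FPKM (5.50 ± 0.427, n = 3). That range lay above all 4 hippocampal values of the first locus and overlapped the hippocampal values of the summed loci.

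**Figure D1:**
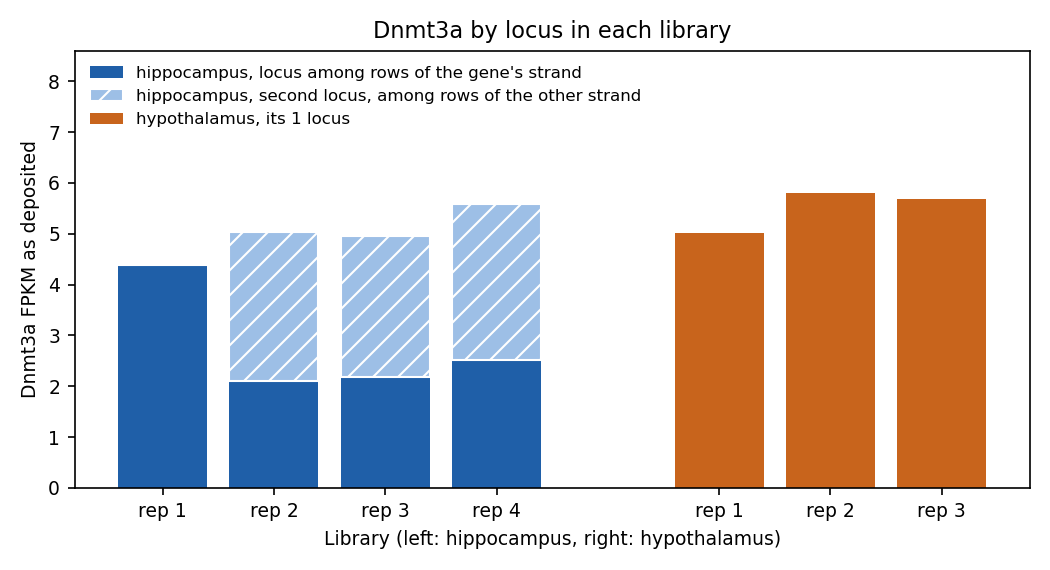
Bars give the FPKM of the loci named Dnmt3a in each library, on an axis from 0, with the second hippocampal locus (hatched) stacked on the first and no error bars, as each bar is 1 library. The second locus is 0 in hippocampal replicate 1 and between 2.79 and 3.07 FPKM in the other 3, and the stacked bars reach 4.39 to 5.58 FPKM, beside 5.01 to 5.81 FPKM in hypothalamus.

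Dnmt3b, the other de novo enzyme, was the lowest measured member in both tissues. It was at 0.170, 0.139, 0.177 and 0.163 FPKM in hippocampus (0.162 ± 0.0164, n = 4) and at 0.186, 0.210 and 0.289 FPKM in hypothalamus (0.228 ± 0.0541, n = 3). It stayed below the mean of 1 FPKM required in a tissue for a comparison. A pseudogene copy, Dnmt3b-ps1, overlaps the gene in RefSeq, so its low reads are uncertain.

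Within each library the make-up of the writers does not depend on scaling between tables. Dnmt3a made up 29.3%, 18.1%, 20.8% and 21.1% of the summed writer FPKM in hippocampus by its highest locus (22.3% ± 4.82, n = 4; 20.03% without replicate 1). With both loci added, the share was 29.3%, 34.6%, 37.5% and 37.4% (34.7% ± 3.84, n = 4). In hypothalamus it was 40.6%, 46.4% and 41.0% (42.7% ± 3.20, n = 3). The hypothalamic share was the higher one in every library under both ways of counting, although the gap narrowed to 37.5% against 40.6% between the closest libraries when loci were added. With loci added, Dnmt1 made up 64.2% ± 3.88 of the writers in hippocampus and 55.6% ± 3.16 in hypothalamus, and Dnmt3b 1.13% ± 0.158 and 1.76% ± 0.301. The ratio of Dnmt1 to Dnmt3a was then 2.38, 1.86, 1.63 and 1.65 in hippocampus and 1.42, 1.12 and 1.39 in hypothalamus.

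The readers were expressed at higher levels than the writers in every library. Mbd3 was at 67.2, 57.0, 56.5 and 33.3 FPKM in hippocampus (53.5 ± 14.3, n = 4) and at 39.3, 44.1 and 57.7 FPKM in hypothalamus (47.0 ± 9.57, n = 3). Hippocampal replicate 4 was the lowest of the 4, the other 3 having a mean of 60.2 FPKM, and the tissues overlapped. Mbd2, which links methylated CpG to NuRD, was at 37.3, 33.0, 37.3 and 32.7 FPKM in hippocampus (35.1 ± 2.59) and 29.9, 35.5 and 31.6 FPKM in hypothalamus (32.3 ± 2.90), also with overlap; a long noncoding RNA, LOC134483047, overlaps it in RefSeq. Mbd1, which recruits a histone methyltransferase to methylated CpG, was the steadiest: 16.3, 17.8, 17.1 and 17.3 FPKM in hippocampus (17.1 ± 0.658) and 11.2, 12.2 and 12.1 FPKM in hypothalamus (11.9 ± 0.552). Its tissues did not overlap.

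**Figure D2:**
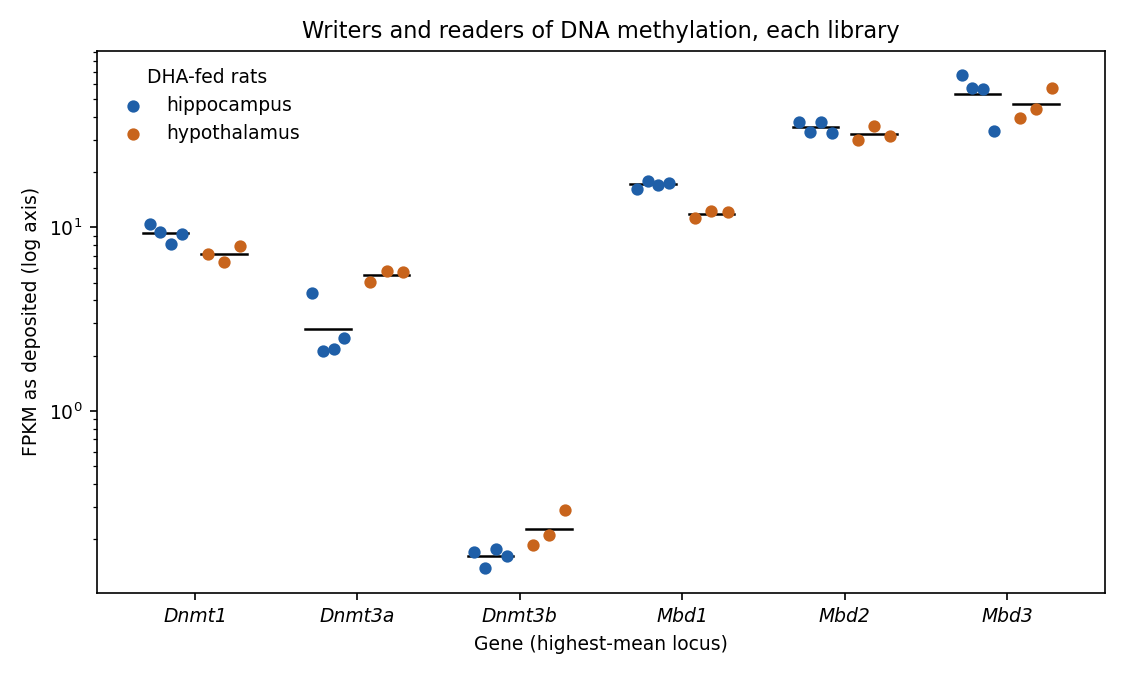
FPKM of the 6 measured members in every library on a log axis, 1 point per library, with a bar at each tissue's mean; Dnmt3a is shown by its highest locus. From Mbd3 down to Dnmt3b the order of the means is the same in both tissues, and the Dnmt3a points run from 2.11 to 4.39 FPKM in hippocampus and from 5.01 to 5.81 FPKM in hypothalamus.

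The order by mean was Mbd3, Mbd2, Mbd1, Dnmt1, Dnmt3a and Dnmt3b in both tissues. Mbd3 and Mbd2 were the only neighbours whose ranges overlapped in either tissue, and yet Mbd3 exceeded Mbd2 inside each library, by a ratio of 1.80, 1.73, 1.52 and 1.02 in hippocampus and 1.31, 1.24 and 1.83 in hypothalamus. Of the symbols that averaged 1 FPKM or more, 87.0% had a lower mean than Mbd3 in hippocampus and 83.4% in hypothalamus. For Dnmt1 these shares were 42.1% and 33.0%, and for Dnmt3a by its highest locus 13.6% and 26.0%.

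Mbd3 made up 55.6%, 52.9%, 51.0% and 40.0% of the summed reader FPKM in hippocampus (49.9% ± 6.86) and 48.9%, 48.0% and 56.9% in hypothalamus (51.3% ± 4.93), with overlap. The ratio of Mbd2 to Mbd1 separated the tissues: 2.30, 1.85, 2.18 and 1.88 in hippocampus (2.05 ± 0.220) and 2.66, 2.90 and 2.61 in hypothalamus (2.72 ± 0.155). Summed reader FPKM exceeded summed writer FPKM, with Dnmt3a loci added, by a ratio of 7.36 ± 1.25 in hippocampus and 7.06 ± 0.470 in hypothalamus.

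**Figure D3:**
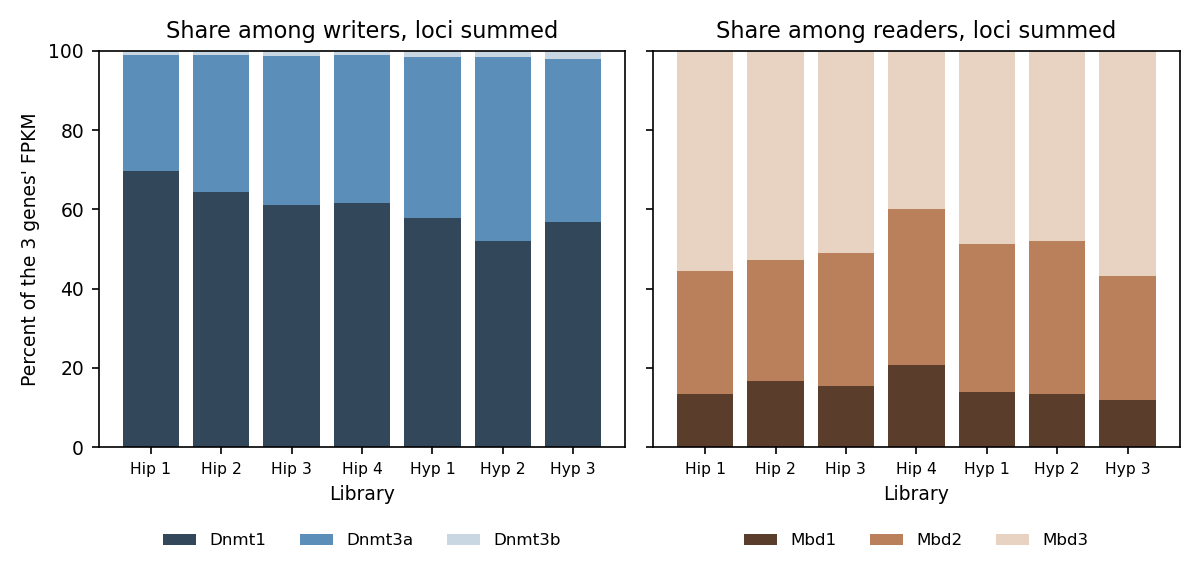
Stacked bars give each gene's percent of the summed FPKM of its 3 genes, with loci added, 1 bar per library (Hip, hippocampal replicates; Hyp, hypothalamic replicates); writers are on the left and readers on the right. The Dnmt3a part is 29.3% to 37.5% in the 4 hippocampal bars and 40.6% to 46.4% in the 3 hypothalamic bars, while the Mbd3 part overlaps, with its lowest value of 40.0% in hippocampal replicate 4.

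The spread between libraries differed between members. The SD of log2(FPKM + 1) in hippocampus was 0.0528 for Mbd1, lower than in all but 1.89% of 10309 symbols, and 0.430 for Mbd3, where 86.8% of symbols had a lower one. In hypothalamus it was 0.0627 for Mbd1 (5.28% of symbols lower) and 0.279 for Mbd3 (58.0% lower). The median over the 5 members above 1 FPKM was 0.135 in hippocampus and 0.120 in hypothalamus, beside 0.227 and 0.246 over all symbols. Hippocampal replicate 1 was the highest library for 4 of the 5 members, and it was highest for 30.5% of all symbols. That count rests on the first Dnmt3a locus and on a near tie for Mbd2: with loci added Dnmt3a was lowest in that library, and rescaled Mbd2 was 108.5 there and 109.0 in replicate 3. Hypothalamic replicate 1 was the lowest for 4 of 5, against 36.0% of all symbols, and there too Mbd2 was nearly tied with replicate 3 after rescaling, at 71.129 and 71.126.

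The tissues were then compared. The 2 tables were normalized separately, so tissue and table cannot be told apart, and no test was made. Values were rescaled so that the shared symbols of a library add up to 1000000, and the difference is hippocampus minus hypothalamus in mean log2(rescaled FPKM + 1). A gene was called higher in a tissue when its libraries did not overlap and the difference was at least 2-fold. No member was called in either direction, where 14.5% of 10736 compared symbols were called higher in hippocampus and 13.4% higher in hypothalamus. By non-overlap alone, Dnmt1, Mbd1 and Mbd2 lay above in hippocampus, 3 of 5 members, and none lay above in hypothalamus. That rule held for 28.2% and 24.4% of all symbols, 52.6% in either direction. The members' median difference was 0.46 and that of all symbols 0.05.

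Rescaled Mbd1 was 47.3, 50.1, 49.96 and 49.7 in hippocampus and 26.7, 29.2 and 27.3 in hypothalamus, a log2 difference of 0.81, and 0.50 in FPKM as deposited. Rescaled Dnmt1 was 30.3, 26.4, 23.7 and 26.3 against 17.0, 15.5 and 17.7, a difference of 0.64, and 0.33 as deposited. Both genes lay above in hippocampus in all 18 settings examined. The difference of Mbd2 was 0.41 after rescaling and 0.11, with overlap, in FPKM as deposited, and its libraries also overlapped under upper-quartile scaling. In deposited FPKM, Dnmt1 and Mbd1 lay above in hippocampus, as did 19.0% of all symbols, and Dnmt3a by its highest locus lay above in hypothalamus, as did 35.2%; no member reached 2-fold, against 8.64% of symbols higher in hippocampus and 16.9% in hypothalamus. Deposited FPKM put the median of all symbols at -0.21, so the direction of a small difference depends on the scale. Mbd3 differed by 0.46 with overlap, and without hippocampal replicate 4 by 0.67 without overlap.

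For Dnmt3a the direction depended on how its loci were handled. Rescaled values of the highest locus were 12.8, 5.93, 6.36 and 7.18 in hippocampus and 11.9, 13.8 and 12.8 in hypothalamus, a difference of -0.67 with overlap at hippocampal replicate 1. Without that library the difference was -0.89 and every hypothalamic library lay above. Leaving out hypothalamic replicate 1 also removed the overlap, at -0.72, as did leaving out replicate 1 of both tissues, at -0.94. With loci added, the values were 12.4, 13.5, 13.9 and 15.0 against 11.8, 13.5 and 12.5, a difference of 0.11 with overlap. With loci added, Dnmt1, Mbd1 and Mbd2 were again the members without overlap, all above in hippocampus (27.9% of 10750 symbols), and no member reached 2-fold (14.5% and 14.1% of symbols in the directions of hippocampus and hypothalamus).

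Markers of cell classes also differed between the tables. Neuronal markers (4 of 4 found) summed to 1428 to 2339 FPKM in hippocampus and 843 to 1017 FPKM in hypothalamus. Astrocyte markers summed to 405 to 593 and 765 to 1123 FPKM, and oligodendrocyte markers to 3344 to 4221 and 5410 to 7053 FPKM. Microglial markers summed to 76.4 to 98.3 and 103 to 114 FPKM, but the 4 genes were split: Csf1r and P2ry12 lay above in hypothalamus and Cx3cr1 in hippocampus, Aif1 overlapped, and after rescaling their median difference was -0.01. Endothelial markers summed to 77.9 to 125 and 47.5 to 69.1 FPKM, of which Pecam1 overlapped and had the higher mean in hypothalamus. Meningeal markers overlapped, at 25.3 to 117 and 27.9 to 137 FPKM, with Col1a2 listed at 0 in both tissues and Ogn in hippocampus. Markers of dividing cells, in which Dnmt1 is abundant, summed to 3.13 to 4.57 FPKM in hippocampus and 1.57 to 2.68 FPKM in hypothalamus. Of the 4 markers only Ccnb1 reached the minimum for a comparison, and it lay above in hippocampus. Mki67, Top2a and Cdk1 overlapped in FPKM as deposited, and after rescaling Cdk1 lay above in hippocampus. The part of these cell classes in the members' differences was not tested. In whole tissue, fewer cells of a type and less RNA per cell cannot be told apart.

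Other genes that write, remove, read or supply DNA methylation were examined as a list of 46. Both tables held 37 of them, and 35 were compared. Uhrf1, Tdg and Mat2b, 3 of 35, were called higher in hippocampus and none in hypothalamus, where 14.5% and 13.4% of all symbols were called. Of these 3, Uhrf1 met the minimum of 1 FPKM through hippocampus alone. By non-overlap alone 7 lay above in hippocampus and 4 in hypothalamus, and 24 overlapped, where 28.2% and 24.4% of all symbols lay above. The median difference of the 35 was -0.12. The balance turned with the scale: in FPKM as deposited 4 lay above in hippocampus and 10 in hypothalamus (19.0% and 35.2% of all symbols), with a median of -0.39, and Tdg and Mat2b were the genes called higher in hippocampus. The overlap also rested on replicate 1: without replicate 1 of either tissue, 12 lay above in hippocampus and 9 in hypothalamus and 14 overlapped, where 40.9% and 33.2% of all symbols lay above.

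Uhrf1, which brings Dnmt1 to newly replicated DNA, was at 1.69, 1.72, 1.30 and 1.58 FPKM in hippocampus (1.57 ± 0.193) and 0.580, 0.610 and 1.04 FPKM in hypothalamus (0.744 ± 0.259). Its difference of 1.03 lay at the edge of the 2-fold rule. It was 0.99 without hippocampal replicate 1, 0.94 without hypothalamic replicate 1 and 0.96 without hypothalamic replicate 2, so the call was lost in each, while the libraries still did not overlap. In FPKM as deposited it was 0.57, and Uhrf1 was called in 8 of the 17 settings in which it was compared. Uhrf1 met the minimum of 1 FPKM through hippocampus alone, the tissue of the call, and with a minimum of 5 FPKM it was not compared. Relative to Dnmt1, Uhrf1 was at 0.162, 0.183, 0.160 and 0.172 in hippocampus and 0.0813, 0.0937 and 0.133 in hypothalamus. Arrdc5 overlaps Uhrf1 in RefSeq and has a locus in the tables, so reads may be shared. Uhrf1 was the 1 gene called among 7 maintenance and de novo partners, near the 14.5% of all symbols called in that direction. Dnmt3l, the inactive partner of the de novo enzymes in germ cells, was listed at 0 in all hippocampal libraries and was at 0.0568, 0.148 and 0.0279 FPKM in hypothalamus.

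Tdg, the glycosylase that excises the bases Tet enzymes oxidise, was at 11.8, 23.0, 16.2 and 19.6 FPKM in hippocampus (17.7 ± 4.80) and 6.78, 5.44 and 4.06 FPKM in hypothalamus (5.42 ± 1.36). Its difference of 1.91 was called in all 18 settings. It was carried by 2 loci in each table, and Glt8d2 overlaps it in RefSeq. Tdg was the 1 gene called among 10 excision and demethylation partners, near the 14.5% of all symbols called higher in hippocampus. Gadd45a, a stress-response gene linked to active demethylation, went the other way at 5.18, 6.08, 7.40 and 6.26 FPKM (6.23 ± 0.911) and 16.9, 13.3 and 15.6 FPKM (15.3 ± 1.81). Its libraries did not overlap, and its difference of -0.96 fell short of 2-fold after rescaling, but it reached -1.17 and was called in FPKM as deposited. It was also called without hippocampal replicate 3 or without hypothalamic replicate 2.

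Among the other readers, 3 were compared and none was called. Mbd6, another member of the methyl-CpG-binding domain family, was at 5.27, 1.81, 2.54 and 1.68 FPKM in hippocampus and 3.999, 10.1 and 12.3 FPKM in hypothalamus, with overlap at replicate 1 of each tissue, and without either one it was called higher in hypothalamus. Zbtb33, the reader Kaiso, had the lowest mean on the list over all 7 libraries, with 0.0211 FPKM in hippocampal replicate 3 and 0 listed elsewhere, although in hippocampus alone Dnmt3l was lower.

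After rescaling, the 8 NuRD partners of Mbd2 and Mbd3 all overlapped between the tissues, where 52.6% of all symbols did not, and none was called. In FPKM as deposited, 2 of the 8 lay above in hypothalamus, the deacetylase Hdac1 and the scaffold subunit Gatad2a, as did 35.2% of all symbols. Without replicate 1 of either tissue, 4 of the 8 no longer overlapped, as 74.0% of all symbols did not: Hdac2 and Rbbp7 lay above in hippocampus and Mta1 and Gatad2a in hypothalamus. Among them Hdac2, a deacetylase of the complex, was at 24.95, 36.3, 31.1 and 46.0 FPKM in hippocampus and 34.8, 17.8 and 16.3 FPKM in hypothalamus, with a difference of 0.93, and it was called higher in hippocampus without hippocampal replicate 1, at 1.07, and without hypothalamic replicate 1, at 1.28. Mta1 was at 26.9, 23.7, 19.8 and 17.4 FPKM and 24.6, 32.0 and 38.5 FPKM. Hippocampal replicate 4, the library in which Mbd3 was lowest, was the lowest for 5 of the 8 and the highest for the other 3, Hdac2, Rbbp7 and Gatad2b. That library was the lowest for 36.7% of all symbols and the highest for 33.1%. Chd4 and Mbd4 were not analysed here.

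In the methyl donor cycle, 1 of 7 genes was called, again near the 14.5% of all symbols. Mat2b, the regulatory subunit of the enzyme that makes S-adenosylmethionine, differed by 2.48, but its highest hippocampal locus was uneven, at 48.8, 205, 156 and 252 FPKM (166 ± 87.2). Only 14.0% of that locus's neighbours were on the strand of Mat2b. A second hippocampal locus, with 91.3% of neighbours on that strand, was at 45.0, 41.0, 38.1 and 53.9 FPKM, and the hypothalamic locus (94.2%) was at 38.9, 27.8 and 26.9 FPKM (31.2 ± 6.70). With the second locus the difference was 0.81 and no longer called. Ahcyl1, a relative of the enzyme that clears S-adenosylhomocysteine, had the highest mean on the list over all 7 libraries, with 102 ± 18.5 FPKM in hippocampus, where the highest locus of Mat2b was above it, and 156 ± 35.9 FPKM in the other tissue.

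**Figure D4:**
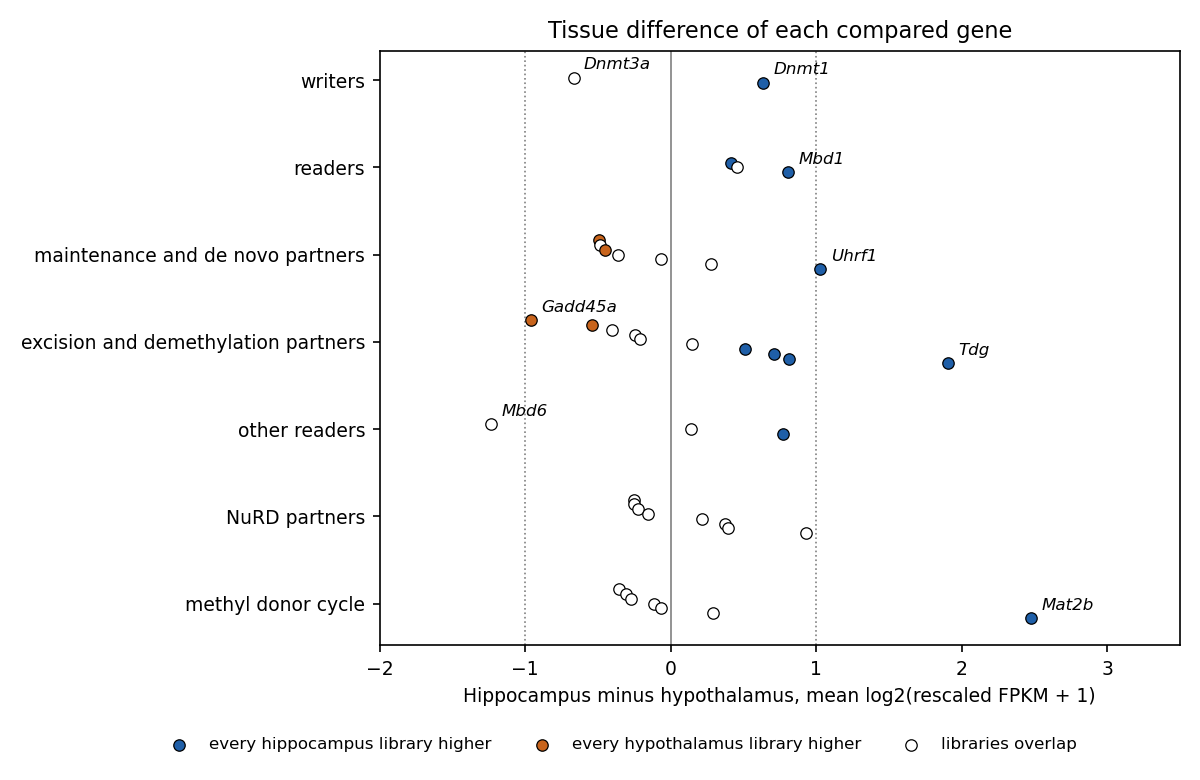
Difference between tissues, as hippocampus minus hypothalamus in mean log2(rescaled FPKM + 1), for the 5 compared members and 35 other pathway genes, with 1 point per gene in rows by role; filled points do not overlap between tissues and dotted lines mark 2-fold. The points past 2-fold without overlap are Uhrf1, Tdg and Mat2b, from 1.03 to 2.48, and Mbd6 lies at -1.23 with overlap.

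The symbols whose values were most like those of Dnmt3a by its highest locus were Fos, Sox11, Plk3, Ctse and Slc16a3. With each gene centred on its own mean, their mean absolute differences from Dnmt3a in log2(rescaled FPKM + 1) over the 7 libraries were 0.0905, 0.0931, 0.0993, 0.112 and 0.122. The median over all symbols was 0.552. Among the other members it was 0.555 for Mbd2, 0.569 for Mbd3, 0.640 for Dnmt1 and 0.747 for Mbd1. These names rest on hippocampal replicate 1: without it, 0 of the 5 were among the 5 nearest symbols, and Fos ranked 9, Ctse 17, Sox11 18, Plk3 78 and Slc16a3 115.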

How the data were processed

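The authors deposited 1 table per tissue of FPKM values per locus and library, 18087 loci in hippocampus and 17762 in hypothalamus. Per the submitters' processing notes, TopHat, TopHat2, Bowtie, Bowtie2, Cufflinks, Cuffdiff and genome build rn5 were used; their roles and the strand setting are not given in the sources used here. Groups came from the labels. Loci whose status was not OK were left out (86 in hippocampus, 24 in hypothalamus). Each symbol was represented by its locus with the highest mean, or by all its loci summed as an alternative. For the tissue comparison the shared symbols of a library were scaled to add up to 1000000, genes had to average 1 FPKM or more in either tissue, and log2(value + 1) was used, which understates differences of low genes. No p-value was computed. With 4 and 3 libraries, the SD measures the spread between these libraries only. The alternatives were other scalings, pseudocounts and minima, summed loci and each library left out. The replicate 1 and own-strand alternatives were chosen after seeing the data. Own strand means the strand of the gene in RefSeq, compared with the 50 rows on either side of a locus.

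The members and all lists were chosen with earlier results of these data known. The genes named were all 9 members; of the other pathway genes, those called higher in a tissue, the highest and the lowest by mean, and Uhrf1, Tdg, Mbd4 and Chd4; and the 5 symbols most like Dnmt3a. Gadd45a, Mbd6, Hdac1, Hdac2, Mta1, Rbbp7, Gatad2a, Gatad2b, Dnmt3l and Idh1 were added after their values were seen. Of the pathway list, 1 gene is not reported here and stands in no count of that list. The lists were maintenance and de novo partners, excision and demethylation partners, other readers, NuRD partners, the methyl donor cycle and markers of hippocampus, hypothalamus, neurons, astrocytes, oligodendrocytes, microglia, dividing cells, choroid plexus, meninges and endothelium. Promoters came from RefSeq's GRCr8 table, which differs from the build of the files, and 5 of the 6 measured members matched it. Python 3.11.15, pandas 2.3.3 and numpy 2.4.6 were used.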

Additional observations from a re-analysis of the deposited data

Results flagged for a closer look

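A library lying far from the other 3 was looked for in hippocampus, the tissue with 4 libraries, with Dixon's ratio, the gap beside the extreme library as a part of the full range, at its 95% critical value. Of 50 results examined 3 passed, where chance gives about 1 in 20, or 2.5. The second Dnmt3a locus XLOC_023957 had a value of 0.907 because replicate 1 was listed at 0 while the other 3 libraries lay between 2.79 and 3.07 FPKM. That locus was put among the 50 results because of its 0 in replicate 1, so its flag cannot be set against chance. Second loci of other genes were not examined on their own. Zbtb33 had a value of 1, both by its highest locus and with loci summed, because 0.0211 FPKM in replicate 3 was its only value above 0.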

How the results depend on the processing

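Of 168 alternative values, 155 were labelled unchanged and 13 moved. Reversals of direction were not looked for. Unchanged meant within 1 SD between libraries for levels and shares, and within 1.5 times the reported count for counts. For the replicate spread it meant within the SD between members. A level or share with 1 library left out cannot move by 1 SD of all its libraries, so those labels were fixed in advance. Summed loci likewise could not change genes with 1 locus. Tissue differences of single genes are not among the 168 values: that of Dnmt3a was -0.67 as reported and 0.11 with loci summed. A like count can hold other genes. Of the hippocampal calls Uhrf1, Tdg and Mat2b, Uhrf1 was called in 8 of the 17 settings in which it was compared, and lost in FPKM as deposited, under upper-quartile and median scaling, with loci summed and with a pseudocount of 5; Mat2b was lost with the locus on the gene's own strand, and Uhrf1 gave way to Hdac2 without replicate 1 of either tissue. Among members without overlap, FPKM as deposited had Dnmt3a, above in hypothalamus, in place of Mbd2. None of the 5 symbols most like Dnmt3a stayed among the nearest 5 without hippocampal replicate 1. No member was called at least 2-fold higher in either tissue under any of the 17 alternatives. The count of other pathway genes called higher in hypothalamus, 0 as reported, was 1 in FPKM as deposited, under upper-quartile scaling and under median scaling (Gadd45a in each), 1 without replicate 1 of either tissue (Mbd6) and 1 with the locus on the gene's own strand (Idh1). That Idh1 call is no like-for-like comparison, since its own-strand hippocampal locus is listed at 0 in all 4 libraries and 13.8% of the neighbours of its 1 hypothalamic locus lie on the strand of Idh1. With single libraries left out it ranged from 0 to 1. With loci summed, the hippocampal mean of Dnmt3a was 4.99 FPKM in place of 2.79, and its share of the writers 34.7% in place of 22.3%, since a second locus is added. No paired analysis was possible because the labels do not say that libraries of the same number share an animal, and the tissue results come from no test to which a pairing could be added. The share of Tet3 among the erasers was not run, as the Tet genes were not analysed here. Depth is unknown, so levels such as that of Dnmt3b have no counting error.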
